A study of Homo sapiens with 8 samples.

Results

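The human genome carries its largest collection of C2H2 zinc finger genes on chromosome 19, and 241 of the 61806 genes in the deposited tables lie there under a symbol made of ZNF and digits only. Membership was set by that symbol and chromosome alone, but the family was proposed with earlier results of these libraries known. Of the 241 members, 190 had at least 10 counts in at least 4 libraries and could be tested. They are among the 14893 genes of the whole table that could be tested. Levels were measured by mRNA-seq in wild-type N/TERT-1 cells, a single immortalized line of human epidermal keratinocytes. The cells received ethanol, the solvent (4 libraries), or O/A (4 libraries), a combination of oligomycin and antimycin A, which block the mitochondrial ATP synthase and complex III of the respiratory chain. The comparison addresses how the transcripts of these cells respond to the loss of mitochondrial function. Treatment lasted 4 hours according to a figure legend of the study, while the sample labels give neither dose nor time. The labels call the 4 libraries of each condition biological replicates. The 10 keratinocyte markers that were checked, such as KRT5, KRT14 and TP63, could each be tested, and their summed level was 4115 to 4379 FPKM in ethanol and 3712 to 3880 FPKM in O/A, with DSG3 upregulated and KRT5 and SFN downregulated. Of 7 fibroblast markers only COL1A1 could be tested, and of 7 melanocyte markers only PMEL and MITF, with MLANA and TYR at 0 in every library.

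A C2H2 zinc finger is a short fold held by a zinc ion, and a row of such fingers reads a stretch of DNA. Many genes of this family also encode a KRAB domain, which binds the corepressor TRIM28. TRIM28 in turn brings the histone methyltransferase SETDB1 and heterochromatin proteins to the bound site. KRAB zinc finger proteins are best known for silencing transposable elements, and their genes arose by repeated tandem duplication, which left them in clusters. In these libraries the members were expressed at low levels. The mean over all libraries ran from 0.0563 FPKM to 41.5 FPKM among tested members, with a median of 1.5 FPKM, and 61 of the 190 lay under 1 FPKM. The median over all genes tested was 4.17 FPKM. Of the 51 members that could not be tested, 20 had no count in any library, and none of the 51 had more than 14 counts in a library.

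Most tested members were lower in O/A than in ethanol. With edgeR's quasi-likelihood test, a gene was called when its Benjamini-Hochberg adjusted p-value over all 14893 genes was at most 0.05 and its log2(FC), the log2 of O/A over ethanol, was beyond 0.25 in either direction. Of the 190 tested members, 78 (41.1%) were downregulated, 16 (8.42%) were upregulated and 96 were not called. Over all genes tested, 18.9% were downregulated and 15.8% were upregulated. The median log2(FC) was -0.20 over the tested members, with quartiles at -0.47 and 0.02, and 0.00 over all genes tested. A negative log2(FC) was found for 141 members (74.2%), against 50.1% of all genes. For 78 members every O/A library lay below every ethanol library after scaling, and for 15 every O/A library lay above, whereas 24.8% and 22.8% of all genes were separated in these directions. Larger falls, past a log2(FC) of -0.5, were called for 40 members (21.1%), against 9.7% of all genes. Rises past 0.5 were called for 5 (2.63%), against 8% of all genes. Of the 190, 181 had at least 10 counts in each of the 8 libraries, and among these 75 were downregulated and 15 upregulated. The members were chosen with earlier results of these libraries known, so the counts are descriptions of the family. Values of single members are given with SE, the standard error of the log2(FC). In bulk samples such as these, fewer cells with a transcript and less transcript per cell cannot be told apart.

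The fall was seen in each O/A library. Summed over all 241 members, the level was 2330, 2340, 2381 and 2361 CPM (counts scaled by TMM to a common library total) in ethanol replicates 1 to 4. The sum was 2124, 2129, 2143 and 2157 CPM in O/A replicates 1 to 4. The groups did not overlap, and the mean dropped from 2353 CPM ± 22.9 (SD, n = 4) to 2138 CPM ± 15 (SD, n = 4), a fall of 9.12%. The few members with many reads weigh most in this sum, while the median below counts every member alike. The median log2 difference of the tested members from their own ethanol mean was between -0.20 and -0.18 in the O/A libraries and between -0.02 and 0.02 in the ethanol libraries. Between 135 and 138 of the 190 lay below their ethanol mean in each O/A library, compared with 78 to 110 in each ethanol library. In both comparisons an ethanol library was set against the mean of the other ethanol libraries.

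The other genes of chromosome 19 were called in shares near those of all genes. Of the 842 other genes of chromosome 19 that were tested, 129 (15.3%) were downregulated and 123 (14.6%) upregulated, with a median log2(FC) of 0.01. In contrast, 235 genes on other chromosomes carry the same kind of symbol, and of the 208 that were tested 84 (40.4%) were downregulated and 25 (12%) upregulated, with a median of -0.19. No test of the difference between these gene groups was made. The called share and the median differed with expression level. Among members split into equal parts of low, middle and high mean CPM, 49.2%, 46.0% and 28.1% were downregulated, with medians of -0.40, -0.24 and -0.09. Every O/A library lay below every ethanol library for 36.5%, 46.0% and 40.6% of them, against 24.8% of all genes. Their median SE was 0.168, 0.101 and 0.070, so values at low level are less precise. Genes that encode no finger but lay between the quartiles of the tested members in level (4.19 to 14.2 CPM) were downregulated in 28.8% of 2151 cases, with a median of -0.06. For genes between the members' quartiles of transcript GC content (39.8% to 45.3%) the share was 15.9% of 3329, and for transcript length (2799 to 5030 bases) 22.9% of 4085. Only 120 genes without a finger met all of these limits together, and 43 of them (35.8%) were downregulated and 22 (18.3%) upregulated, with a median of -0.11. The part of level, GC content and length in the fall of the members was not tested.

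The members were also divided by the domains of their proteins, and the differences were not tested. The shares of all genes tested, for comparison, were 18.9% downregulated and 15.8% upregulated. A pattern for the KRAB A box was found in the canonical protein of 156 tested members. Of these, 67 (42.9%) were downregulated and 13 (8.33%) upregulated, with a median log2(FC) of -0.23. The pattern was not matched in 34, of which 11 (32.4%) were downregulated and 3 (8.82%) upregulated, with a median of -0.12. The pattern can miss diverged KRAB boxes. Members with 10 or more fingers numbered 140, with 61 (43.6%) downregulated, 12 (8.57%) upregulated and a median of -0.23. Those with fewer fingers numbered 50, with 17 (34%) downregulated, 4 (8%) upregulated and a median of -0.13. Downregulated members had a median of 13 fingers and upregulated members 11, and the finger number reached 32 among the tested members, in ZNF91. Median transcript GC content was 42.8% in both the downregulated and the upregulated members, below the 48.0% of all genes tested. Of the 190 tested members, 27 had a GC content of 50% or more. Among these, 12 (44.4%) were downregulated and 2 (7.41%) upregulated, with a median log2(FC) of -0.12. Of the 163 with less, 66 (40.5%) were downregulated and 14 (8.59%) upregulated, with a median of -0.22.

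The largest fall was that of ZNF792 (ENSG00000180884), at chr19:34956354-34964229 on the minus strand of GRCh38. It had 55, 59, 43 and 57 counts in ethanol replicates 1 to 4 and 14, 13, 17 and 13 in the O/A replicates. All O/A libraries lay below all ethanol libraries, and the level dropped from 0.655 FPKM ± 0.084 (SD, n = 4) to 0.178 FPKM ± 0.017 (SD, n = 4), a log2(FC) of -1.84 (SE 0.21, adjusted p = 2.07e-10 edgeR quasi-likelihood). ZNF296, whose protein binds KLF4 and which matched no KRAB pattern, had 66, 72, 58 and 78 counts in ethanol and 23, 21, 27 and 22 in O/A. Its groups were again separate, with a log2(FC) of -1.5 (SE 0.18, adjusted p = 3.81e-10). ZNF17 had 150, 112, 150 and 164 counts in ethanol and 59, 65, 65 and 70 in O/A, which gave a log2(FC) of -1.09 (SE 0.12, adjusted p = 7.49e-11). ZNF180 followed with 288, 291, 247 and 324 counts in ethanol and 146, 161, 135 and 137 in O/A, which gave a log2(FC) of -0.93 (SE 0.085, adjusted p = 1.5e-13). For both, the lowest ethanol library was well above the highest O/A library. ZNF681 (log2(FC) -0.94) and ZNF557 (-0.81) were also separate between the groups, with at least 100 and 161 counts in the ethanol libraries and at most 66 and 112 in O/A.

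Other large falls rest on fewer or less certain reads. ZNF554 (-1.10), ZNF132 (-0.96) and ZNF221 (-0.92) had at most 44 counts in any library. ZNF540, at -1.08, had 15 or 16 counts with ethanol and 3 to 11 with O/A, and ZFP30, which overlaps it on the other strand, held most of the reads at the locus. ZNF724 fell by 1.31 on the log2 scale, from between 49 and 62 counts to between 19 and 27, but 50.5% of the 150-base stretches of its transcript also occur in transcripts of other genes. The same share was 82.1% for ZNF564, at -0.92 with 16 to 20 counts with ethanol and 5 to 13 with O/A. Reads of such members may have been counted on a related gene or dropped. ZNF564 lost its call without O/A replicate 4 (log2(FC) -0.73, adjusted p = 0.0537).

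The strongest statistical calls were among members with more reads. ZNF561 (chr19:9604680-9621236, minus strand) had 1815, 1675, 1830 and 1978 counts in ethanol and 1090, 1185, 1187 and 1159 in O/A. The groups were far apart, and the level fell from 15.7 FPKM ± 0.87 (SD, n = 4) to 9.97 FPKM ± 0.28 (SD, n = 4), a log2(FC) of -0.60 (SE 0.038, adjusted p = 3.03e-19). ZNF544 had 743, 746, 724 and 884 counts in ethanol and 446, 465, 473 and 450 in O/A, which gave a log2(FC) of -0.70 (SE 0.050, adjusted p = 2.67e-17). ZNF561 was the only downregulated gene among the 5 members with the highest mean FPKM. ZNF146, the member with the highest level, encodes 10 fingers and no KRAB domain, and it had 42.1 FPKM ± 0.78 with ethanol and 40.8 FPKM ± 0.66 with O/A (SD, n = 4 each), with a log2(FC) of 0.00 and overlapping groups. ZNF317 (-0.06), ZNF428 (0.22) and ZNF266 (0.03) were not called either. ZNF428 had an adjusted p of 0.0167 and a log2(FC) within the threshold, which it passed at 0.26 without ethanol replicate 1, O/A replicate 1 or O/A replicate 2. ZNF525, the largest change of the cluster that ends with ZNF331, had 2.85 FPKM ± 0.073 with ethanol and 1.82 FPKM ± 0.099 with O/A (SD, n = 4 each, log2(FC) -0.60, adjusted p = 1.38e-10), and it overlaps ZNF765 on the same strand.

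Among the 16 upregulated members, ZNF419 and ZNF773 stood out in size and separation. ZNF419 (ENSG00000105136, chr19:57487711-57496098, plus strand), known as the source of a minor histocompatibility antigen, had 198, 167, 175 and 253 counts in ethanol and 427, 510, 417 and 442 in O/A. All O/A libraries lay above all ethanol libraries, and the level rose from 1.33 FPKM ± 0.13 (SD, n = 4) to 3.05 FPKM ± 0.28 (SD, n = 4), a log2(FC) of 1.24 (SE 0.076, adjusted p = 4.23e-19 edgeR quasi-likelihood). ZNF773 is the next tested member on the plus strand, and its start lies 12.2 kb from that of ZNF419. It had 140, 124, 116 and 145 counts in ethanol and 230, 236, 202 and 214 in O/A. Its groups did not overlap either, with a log2(FC) of 0.81 (SE 0.092, adjusted p = 1.32e-10). Of their transcripts, 3.79% and 3.81% of 150-base stretches are shared with other genes. The tested members on either side of the pair, ZNF772 (-0.24) and ZNF549 (-0.25), were not called. ZNF114 had the highest log2(FC), 1.27 (SE 0.29, adjusted p = 0.000172), on 8 to 10 counts with ethanol and 19 to 28 with O/A.

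ZNF274 is the member whose product binds the ends of other ZNF genes, where it brings TRIM28 and SETDB1, and it was upregulated. It had 559, 578, 518 and 645 counts in ethanol and 703, 741, 803 and 711 in O/A, with no overlap between the groups. Its level rose from 3.73 FPKM ± 0.15 (SD, n = 4) to 4.83 FPKM ± 0.12 (SD, n = 4), a log2(FC) of 0.42 (SE 0.049, adjusted p = 2.25e-10). ZNF222 (0.54) was also separate between the groups, with 73 to 91 counts with ethanol and 93 to 123 with O/A. ZNF460 (0.65, adjusted p = 0.00301), ZNF714 (0.43, adjusted p = 0.0161) and ZNF611 (0.41, adjusted p = 0.000238) were called although their groups overlapped. ZNF841 (0.49) and ZNF333 (0.41) each overlap another gene with many reads, ZNF432 on the same strand and ADGRE2 on the other, and on log2(FPKM + 0.1) ZNF333 was not called by limma (0.32, adjusted p = 0.0526). Whether the counting used the strand is not given in the sources used here, so the reads of such pairs cannot be told apart.

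Promoter sequences from RefSeq (GRCh38.p14) were matched by symbol to 210 members, and for 181 of them the RefSeq start lay within 1000 bases of the deposited one. The 250 bases before the start are shown for members at both ends of the range, so that their short motifs can be compared. Capitals mark, on either strand, the CCAAT box read by NF-Y, the GC box GGGCGG read by SP and KLF factors, the ETS site CCGGAAG and the E-box CACGTG. Adjacent or overlapping matches form 1 run of capitals. The upregulated neighbors ZNF419 (chr19:57487500-57487749, plus strand) and ZNF773 (chr19:57499688-57499937, plus strand) and the upregulated ZNF274 (chr19:58182811-58183060, plus strand) are followed by the downregulated ZNF792 (chr19:34964230-34964479, minus strand), ZNF296 (chr19:45076479-45076728, minus strand) and ZNF724 (chr19:23250395-23250644, minus strand).
ZNF419: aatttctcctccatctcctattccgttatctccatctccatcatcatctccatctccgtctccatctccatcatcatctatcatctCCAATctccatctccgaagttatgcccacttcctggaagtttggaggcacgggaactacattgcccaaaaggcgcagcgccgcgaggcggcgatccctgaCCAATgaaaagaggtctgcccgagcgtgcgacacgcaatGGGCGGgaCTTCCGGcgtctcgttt
ZNF773: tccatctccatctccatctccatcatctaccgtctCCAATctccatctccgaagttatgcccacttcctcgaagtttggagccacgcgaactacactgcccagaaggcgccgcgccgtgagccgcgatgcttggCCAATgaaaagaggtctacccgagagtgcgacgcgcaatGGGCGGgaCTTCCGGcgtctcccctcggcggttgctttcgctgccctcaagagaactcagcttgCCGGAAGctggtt
ZNF274: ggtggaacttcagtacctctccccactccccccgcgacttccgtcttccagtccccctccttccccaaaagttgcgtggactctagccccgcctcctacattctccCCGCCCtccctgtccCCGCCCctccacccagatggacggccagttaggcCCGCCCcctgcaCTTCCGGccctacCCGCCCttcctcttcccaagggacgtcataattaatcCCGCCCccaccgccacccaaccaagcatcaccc
ZNF792: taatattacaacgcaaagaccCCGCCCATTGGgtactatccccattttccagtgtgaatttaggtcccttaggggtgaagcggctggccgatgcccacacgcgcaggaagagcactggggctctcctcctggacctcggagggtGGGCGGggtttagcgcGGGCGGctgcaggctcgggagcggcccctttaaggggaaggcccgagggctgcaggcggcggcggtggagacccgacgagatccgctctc
ZNF296: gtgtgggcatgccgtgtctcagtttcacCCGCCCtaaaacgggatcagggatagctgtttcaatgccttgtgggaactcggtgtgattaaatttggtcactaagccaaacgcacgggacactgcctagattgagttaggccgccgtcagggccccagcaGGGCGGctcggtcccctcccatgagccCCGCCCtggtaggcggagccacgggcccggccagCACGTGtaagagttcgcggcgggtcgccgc
ZNF724: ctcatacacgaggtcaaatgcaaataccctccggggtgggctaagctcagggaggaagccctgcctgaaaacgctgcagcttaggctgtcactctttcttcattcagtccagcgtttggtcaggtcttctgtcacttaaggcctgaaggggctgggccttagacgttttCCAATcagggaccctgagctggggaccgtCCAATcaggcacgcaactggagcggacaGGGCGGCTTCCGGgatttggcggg

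The ZNF419 and ZNF773 promoters matched at 178 of 198 aligned bases (89.9%), and both hold an ETS site just after a GC box. The promoter of the upregulated ZNF274 also holds an ETS site, and so does that of the downregulated ZNF724, directly after a GC box, whereas those of ZNF792 and ZNF296 hold none. Among the sequences shown the site was thus present in members called in either direction. Over the 181 promoters the ETS site was present in 56 (30.9%), against 16.6% of 9989 promoters of protein-coding genes tested and 8.48% of all 34943 promoters of the same length. By call, 9 of 14 upregulated, 19 of 60 downregulated, 18 of 71 uncalled and 10 of 36 untested members had the site. The CCAAT box was in 52.5% of members' promoters, against 35.3% of tested genes, and it was found in 7 of the 14 upregulated and 32 of the 60 downregulated members. The GC box was in 68.0%, close to the 67.6% of tested genes, with 33 of 60 downregulated and 10 of 14 upregulated members. The TATA box TATAAA was in 2.21% of members, against 5.47% of tested genes, and the E-box in 3.31%, against 8.74%. The ATF4-C/EBP element TGATGNAA, the cAMP response element TGACGTCA and the YY1 site AAGATGGC were in 2, 5 and 5 of the 181. These are matches of letters in a window and were not tested.

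Of the other 9 members with a known role, 4 were downregulated, 4 were not called and 1 could not be tested. ZNF91, which represses SVA retrotransposons, was not called, with 331 to 500 counts with ethanol and 345 to 404 with O/A (log2(FC) 0.00, adjusted p = 0.967). ZNF93, which represses LINE-1 elements, had at most 5 counts in a library and was not tested. ZNF675, an inhibitor of TRAF6 signaling, fell by 0.41 on the log2 scale, from between 307 and 334 counts to between 213 and 250 (adjusted p = 5.83e-06). ZNF473, which takes part in histone pre-mRNA processing, had a log2(FC) of -0.28 (adjusted p = 0.000154), and VRK3, which overlaps it on the other strand, held more reads than ZNF473 itself. Without O/A replicate 2 the log2(FC) of ZNF473 was -0.24, within the threshold. ZNF649, a repressor of growth factor signaling, had a log2(FC) of -0.41 (adjusted p = 1.86e-05), and it overlaps ZNF577 on the same strand. ZNF331, a gene rearranged in thyroid adenomas, had a log2(FC) of -0.29 (adjusted p = 0.0352), with overlapping groups. Its call was lost with DESeq2 (adjusted p = 0.0875) and without ethanol replicate 2 or 4 or O/A replicate 1, 2 or 3, with log2(FC) between -0.30 and -0.21 and adjusted p from 0.0554 to 0.176. ZNF558, which controls the mitophagy gene SPATA18 in neural progenitors, had 173 to 214 counts with ethanol and 152 to 184 with O/A (log2(FC) -0.18, adjusted p = 0.096) and was not called. ZNF224, a repressor of the aldolase A gene, was within the fold threshold at -0.20 (adjusted p = 0.00861), and ZNF175 had a log2(FC) of 0.05 (adjusted p = 0.665).

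The members were next ordered along the chromosome, where the background is that of all genes tested, of which 18.9% were downregulated and 15.8% upregulated. Members were joined into clusters where neighboring starts were at most 1 Mb apart, which gave 16 clusters, of which 8 held at least 5 tested members and together 180 of the 190. The median log2(FC) was negative in all 8 clusters, from -0.43 to -0.08. The lowest median was that of the small cluster from ZNF302 to ZNF792, between 34.7 and 35.0 Mb, in which all 5 tested members were downregulated. The highest median, -0.08, was that of the cluster from ZNF175 to ZNF331, between 51.6 and 53.6 Mb, where 8 of 32 (25%) were downregulated and 3 upregulated, a share near that of all genes. The cluster between 11.5 and 12.6 Mb, from ZNF653 to ZNF791, had 7 of 16 downregulated, none upregulated and a median of -0.35. In the cluster from ZNF557 to ZNF846, between 7.07 and 9.79 Mb, 4 of 13 (30.8%) were downregulated and none upregulated, with a median of -0.17. The cluster from ZNF101 to ZNF254, between 19.7 and 24.1 Mb, held 37 members of which only 18 (48.6%) could be tested, and 7 of these were downregulated and 3 upregulated (median -0.22). Between 36.2 and 37.8 Mb 8 of 24 were downregulated and 1 upregulated (median -0.17). Between 43.5 and 45.1 Mb 11 of 23 were downregulated and 1 upregulated (median -0.25). The largest cluster, between 55.5 and 58.5 Mb, held 57 members, with 22 of 49 tested members downregulated and 6 upregulated (median -0.24). With starts joined only up to 250 kb apart, the median of the 7 tested members from ZNF628 to ZNF581 at the near end of that region was 0.04. The 8 smaller clusters held 10 tested members. Between 2.82 and 2.94 Mb 3 of 4 were downregulated (median -0.51), and between 42.1 and 42.2 Mb 2 of 2 (median -0.59). ZNF473, alone in its cluster, was downregulated, and the single member at 32.3 Mb was not called. At 14.7 Mb and between 47.5 and 48.3 Mb the only tested member, ZNF333 and ZNF114, was upregulated. Differences between clusters were not tested.

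Neighboring members were then compared with each other. Over 176 pairs of neighboring tested members in a cluster, with a median distance of 43.8 kb between starts, the log2(FC) of the members had a Pearson r of 0.25 and a Spearman rho of 0.19, given as a description. These pairs share genes and libraries, and related neighbors can share reads. Both members were downregulated in 31 pairs, both were upregulated in 5, and they were called in opposite directions in 3. Of all tested members 41.1% were downregulated and 8.42% upregulated, so many downregulated pairs would arise in any order of the members. Whether position adds to these counts was not tested. The longest runs of called neighbors were picked after the values were seen. In the first run, ZNF302 had 380 to 504 counts with ethanol and 313 to 363 with O/A (log2(FC) -0.33), and ZNF30 had 126 to 189 and 80 to 99 (-0.76). Between them lie ZNF181 (-0.33, adjusted p = 0.0163) and ZNF599 (-0.43, adjusted p = 0.0293), whose groups overlapped, and the run ends with ZNF792. ZNF181 was not called without ethanol replicate 1 (-0.26, adjusted p = 0.0882), without ethanol replicate 3 (-0.28, adjusted p = 0.0583) or without O/A replicate 4 (-0.28, adjusted p = 0.0609). ZNF599 was not called without ethanol replicate 2, 3 or 4 or without O/A replicate 1 or 4, with log2(FC) from -0.40 to -0.31, and its adjusted p with DESeq2 was 0.0742.

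The second run, at the far end of the chromosome, comprised ZNF584 (-0.84), ZNF132 (-0.96), ZNF324 (-0.90) and ZNF446 (-0.51). ZNF584 had 173 to 262 counts with ethanol and 99 to 128 with O/A, and ZNF324 had 212 to 268 and 116 to 128. ZNF324 and ZNF446 overlap on the same strand, and 30.3% of the 150-base stretches of the ZNF324 transcript occur elsewhere. Upregulated neighbors formed a run of ZNF430 (0.37), ZNF714 (0.43) and ZNF431 (0.28) inside the cluster between 19.7 and 24.1 Mb. ZNF430 had 276 to 399 counts with ethanol and 400 to 445 with O/A, and its groups were separate after scaling. The call of ZNF714 was lost without ethanol replicate 1, ethanol replicate 2 or O/A replicate 1 (adjusted p = 0.0555, 0.0696 and 0.066), and that of ZNF431 without ethanol replicate 1 (log2(FC) 0.24). Called pairs also formed from ZNF460 and ZNF805 (0.29), ZNF841 and ZNF432 (0.27), and the downregulated ZNF17 and ZNF749 (-0.29). The calls of ZNF805 without O/A replicate 3 (adjusted p = 0.0892), of ZNF749 without O/A replicate 2 (adjusted p = 0.0698) and of ZNF432 without ethanol replicate 3 or O/A replicate 4 (log2(FC) 0.25 and 0.24) were lost. The pairs in opposite directions were ZNF431 (0.28) beside ZNF708 (-0.48), ZNF222 (0.54) beside ZNF230 (-0.41), and ZNF274 (0.42) beside ZNF544 (-0.70). In each of these the downregulated partner was separate between the groups.

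The TRIM28 silencing complex and general heterochromatin genes were examined as a list of 22 genes, which were all expressed highly enough to be tested. None was upregulated, 8 (36.4%) were downregulated and 14 were not called, with a median log2(FC) of -0.21, against 15.8% upregulated, 18.9% downregulated and a median of 0.00 over all genes tested. The list was written for this comparison with earlier results known. TRIM28 was lower in each O/A library, with 62.8 FPKM ± 0.68 with ethanol and 52.9 FPKM ± 1.4 with O/A (SD, n = 4 each), but at a log2(FC) of -0.20 it stayed within the fold threshold (adjusted p = 8.29e-09 edgeR quasi-likelihood). SETDB1 (-0.20, adjusted p = 0.000481), the methyltransferase of the complex, was also within it. The downregulated genes of the list were UHRF1 (-0.76), which brings DNMT1 to newly made DNA, and the H3K9 methyltransferases EHMT1 (-0.74), EHMT2 (-0.64), SUV39H1 (-0.50) and SUV39H2 (-0.61). Also downregulated were the DNA methyltransferase DNMT3B (-0.62), PPHLN1 (-0.34) of the HUSH silencing complex and CBX1 (-0.28), a heterochromatin protein. UHRF1 fell from 14.3 FPKM ± 0.27 to 8.18 FPKM ± 0.37 (SD, n = 4 each). Regardless of the fold threshold, 16 genes of the list (72.7%) had an adjusted p of at most 0.05 with a negative log2(FC). Only 1, CHD3 (0.12), had such a p with a positive log2(FC). The shares of all genes tested were 27.7% and 26%.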

How the data were processed

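The 8 mRNA-seq libraries of N/TERT-1 cells were grouped by their sample labels. The deposited counts were made by the authors with HISAT2 2.0.1 (GRCh38.p13) and HTSeq 0.6.1, per the submitters' processing notes, and are not normalized. The Ensembl release and the strand setting are not given in the sources used here. From these counts the authors computed the deposited FPKM values, by exonic length and library total. A deposited table of the authors' DESeq2 comparison holds fold changes and p-values and was not used. Totals were 17210404 to 20999927 counts per library, so a member with few counts is imprecise.

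O/A was compared with ethanol by the robust quasi-likelihood test of edgeR 4.0.16 (R 4.3.3) after TMM scaling, with Benjamini-Hochberg adjustment over the 14893 genes that reached 10 counts in 4 or more libraries. The standard error is the absolute log2(FC) divided by the square root of the F statistic. The scripts were tested on simulated data. Libraries with the same replicate number did not deviate together (correlations of deviations 0.050, 0.00, -0.03 and 0.083). Within a group, no library was a copy of another by a chi-square comparison of counts.

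Transcript GC content, length, zinc fingers, the KRAB pattern and shared 150-base stretches came from canonical transcripts of GENCODE v44, in which all 241 members were found. The members and lists were chosen with earlier results of these data known. Members named are the 10 largest rises and 10 largest falls, the 5 with the highest mean FPKM, the largest change in each cluster of at least 5 tested members, neighbors called in opposite directions and members with a known role, 41 in all. Another 11, from runs of called neighbors, and ZNF772 and ZNF549 beside ZNF419 and ZNF773 were chosen after their values were seen. From the list of TRIM28 and heterochromatin genes, TRIM28 and the called genes are named, with SETDB1 and CHD3 added afterwards. Alternatives were DESeq2 1.42.0, limma 3.58.1 on log2(FPKM + 0.1), other scalings, filters and thresholds, a wider family, the replicate block and each library left out. Nearly unique sequence (at most 1% shared) was added after seeing the data.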

Additional observations from a re-analysis of the deposited data

How the results depend on the processing

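The median log2(FC) of the members stayed negative under each alternative for which it was computed. The median log2(FC) of -0.20 moved to -0.14 under quantile normalization, -0.23 without the filter, -0.16 at a mean FPKM of at least 1, -0.23 on log2(FPKM + 0.1), -0.23 over the 53 members that overlap no other gene and -0.17 over the 145 with nearly unique sequence, and with each library left out it lay between -0.21 and -0.19. The 78 downregulated members became 48 of 129 at a mean FPKM of at least 1, 6 at an absolute log2(FC) above 1 and 25 of 53 without overlapping genes, and 72 to 76 with a library left out. The 16 upregulated members became 9 on log2(FPKM + 0.1), 2 at an absolute log2(FC) above 1, 3 without overlapping genes and 10 with nearly unique sequence, and 14 to 17 with a library left out. At an absolute log2(FC) above 1, 6 of 190 members were downregulated, against 415 of 14893 genes, and 2 were upregulated, against 382. The downregulated share was thus near that of all genes at this threshold. Counts over all genes under the other filters, scalings and subsets are not given here. DESeq2 called 70 and 16. With the replicate block 77 were downregulated and 16 upregulated, with a median of -0.20. The sample labels do not say whether libraries with the same replicate number came from the same experiment.

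Members near 0 changed sign. ZNF146 was at 0.0061 with DESeq2, 0.0061 with median-ratio scaling and 0.0013 at a mean FPKM of at least 1, and between -0.0056 and 0.019 with a library left out. ZNF91 was at 0.0053 with DESeq2, 0.0030 with median-ratio scaling, 0.053 under quantile normalization, 0.0014 with the replicate block and between -0.034 and 0.082 with a library left out. On log2(FPKM + 0.1) ZNF266 was at -0.014 and ZNF175 at -0.0019, and with a library left out they ranged from -0.0016 to 0.066 and from -0.0053 to 0.095. The highest cluster median was 0.044 with starts joined up to 250 kb and -0.16 up to 2 Mb, and the lowest -0.43 and -0.37. Of 51 named members, 35 kept their direction and call under every alternative that gave them a value. The causes were not tested. Depth limits members with few counts, whose standard errors reach 0.35 (ZNF540).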
